A study of Mus musculus with 6 samples.

Results

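The 10 genes described here make, use and dispose of nicotinamide adenine dinucleotide (NAD) or depend on it: Nampt, Naprt, Nmnat1, Nmnat2, Nmnat3, Sirt1, Sirt3, Sirt6, Parp1 and Nnmt. They were chosen by name, as 10 of the 27179 genes counted, and all 10 were among the 11934 genes that passed the expression filter (100 normalized counts as the mean of the 6 libraries). Naprt passed only through its level in Per/Nr1d_KO cells. The RNA came from 3 immortalized mouse embryonic fibroblast (MEF) lines given as C57BL/6, which were grown without synchronization of the clock, with 2 libraries per line from independent RNA preparations. Every line lacks the period proteins PER1 and PER2. Cry/Per_KO cells carry cry1-/-, cry2-/-, per1-/- and per2-/- alleles and so lack the cryptochromes as well. Per/Nr1d_KO cells carry per1-/-, per2-/-, nr1d1-/- and nr1d2-/- alleles, lack the nuclear receptors NR1D1 and NR1D2 (REV-ERBs), and keep both cryptochromes. Cry/Per/Nr1d_KO cells lack all of these proteins and are 1 clone, made by CRISPR/Cas9 mutation of Nr1d1 and Nr1d2 in Cry/Per_KO cells, whereas Per/Nr1d_KO is a line of separate derivation. No cell line with the full set of clock repressors was among the libraries, and differences between clones or lines cannot be told apart from differences between genotypes.

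In mammalian cells most NAD is recovered from nicotinamide. NAMPT turns nicotinamide into nicotinamide mononucleotide, the rate-limiting step of this salvage route, and the NMNAT enzymes turn the mononucleotide into NAD in the nucleus (NMNAT1), at the Golgi and in axons (NMNAT2) and in mitochondria (NMNAT3). NAPRT starts a parallel route from nicotinic acid. Sirtuins and poly(ADP-ribose) polymerases consume NAD and release nicotinamide, which NNMT methylates and so removes from salvage. The pathway is tied to the circadian clock, since Nampt is a target of the activator CLOCK-BMAL1 through E-box sequences in its promoter, and SIRT1 in turn acts on clock proteins.

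The promoters of the genes are shown because the 3 lines differ in the repressors of CLOCK-BMAL1 and in NR1D, and these act through short sequences. RefSeq promoter windows of GRCm38.p6, from 250 bases before to 50 after a start, were found for 8 of the 10 genes (11 windows), and not for Naprt and Nnmt. Both strands were searched for the E-box CACGTG, the related CACGTT and AGGTCA, the core of the sequences bound by NR1D and related nuclear receptors. Positions are those of the first base of the match, counted from the start site at which RefSeq sets the window, and capitals mark the match. For Nmnat2 (base 152955101) and Nmnat3 (base 98296570) this site lies inside the gene span given below. The same holds for the Sirt6 windows (bases 81627566 and 81627322), and for a further window of Nmnat1 (base 149485172) and of Sirt3 (base 140881869).
Nampt, plus strand, chr12:32820085-32820334: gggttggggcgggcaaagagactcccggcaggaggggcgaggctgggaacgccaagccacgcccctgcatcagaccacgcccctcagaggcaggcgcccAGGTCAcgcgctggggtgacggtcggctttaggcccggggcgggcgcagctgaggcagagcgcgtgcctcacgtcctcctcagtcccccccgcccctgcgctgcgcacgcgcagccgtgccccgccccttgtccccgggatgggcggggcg
Sirt1, minus strand, chr10:63339036-63339285: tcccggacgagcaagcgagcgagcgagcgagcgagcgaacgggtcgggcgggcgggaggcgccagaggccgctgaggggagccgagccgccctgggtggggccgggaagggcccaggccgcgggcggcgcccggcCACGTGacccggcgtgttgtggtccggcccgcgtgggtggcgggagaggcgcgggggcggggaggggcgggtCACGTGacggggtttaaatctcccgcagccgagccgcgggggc
Parp1, plus strand, chr1:180568830-180568859: acctcccaaggaCACGTGctgaagccccgc
Nmnat2, plus strand, chr1:152955118-152955147: accacaaagaccCACGTTatcctgctggcc
Nmnat3, plus strand, chr9:98296581-98296610: gctgggagcgcaAGGTCAagttcactcgcg

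CACGTG was present in the windows of 2 of the 8 genes, Sirt1 at -115 and -43 and Parp1 at -49, and in 7.15% of all 32851 promoter windows. CACGTT was found in 1 of the 8, Nmnat2 at position 30, and in 4.68% of all windows. AGGTCA was found in 2 of the 8, Nampt at -151 and Nmnat3 at position 24, and in 16.3% of all windows. The Nampt window held neither E-box form. None of the 3 motifs occurred in the windows of Nmnat1, Sirt3 or Sirt6. A match is a description of the sequence and not evidence of binding.

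The libraries held 53764390 to 85927236 counts, and the correlation of log2 CPM between the 2 libraries of a line was 0.998 in each line. For the Cry/Per_KO and Cry/Per/Nr1d_KO pairs, the genotype label of a library and the deposited name of its counts contradict each other. Groups follow the genotype labels, so each of these pairs is named below as labelled, with Cry/Per/Nr1d_KO-labelled libraries and Cry/Per_KO-labelled libraries. RNA of the 6 mutated genes was present in every library at 1004 normalized counts or more. Arntl, which encodes BMAL1 and is repressed by NR1D, had 1192 and 1171 normalized counts in the Cry/Per/Nr1d_KO-labelled libraries, 2176 and 2208 in the Cry/Per_KO-labelled libraries and 2493 and 2455 in Per/Nr1d_KO cells. Cry1, another gene that NR1D represses, had 1698 and 1724, 5323 and 5478, and 1535 and 1592 in the same order. In both genes the pair labelled as having NR1D was above the pair labelled as lacking it, by 0.89 (Arntl) and 1.66 (Cry1) on the log2 scale, which goes against the labels. Nr1d1 (1.56), Nr1d2 (0.65), Per1 (0.90) and Per2 (0.45) were also higher in the Cry/Per_KO-labelled pair. Per3 (1.17), Dbp (1.27) and Bhlhe40 (0.73) were higher there too. The paper reports all of these genes, Arntl and Cry1 included, as lower in Cry/Per_KO than in Cry/Per/Nr1d_KO cells. Its directions are those of the exchanged labels. With the 2 labels exchanged, the difference between the 2 labelled pairs keeps its size and turns its sign, and the 2 comparisons of Per/Nr1d_KO cells exchange their reference. Fibroblast genes were abundant, with 7 of 8 markers tested and summed levels of 852368 to 958475 normalized counts in the libraries labelled with Cry mutations and 1766940 to 1788360 in Per/Nr1d_KO. Of the 7, 5 were called higher and 2 lower (Vim and Pdgfrb, by 0.87 and 1.33 on the log2 scale) in Per/Nr1d_KO relative to the Cry/Per/Nr1d_KO-labelled libraries, and the fibroblast marker Thy1 had at most 6.21 normalized counts in any library. Markers of epithelium (17.7 to 138 normalized counts summed over 4 genes), leukocytes (115 to 293 over 3) and endothelium (40.1 to 119.9 over 3) were low in every library, and were summed highest in Per/Nr1d_KO for the first 2 lists. Their part in the results was not tested.

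Nampt was higher in Per/Nr1d_KO cells and in the Cry/Per_KO-labelled libraries than in the Cry/Per/Nr1d_KO-labelled libraries, and the difference was modest. The gene (Entrez Gene 59027, chr12:32820335-32853369 of GRCm38, plus strand) had 7870 and 8477 normalized counts in the Cry/Per/Nr1d_KO-labelled libraries, 10882 and 10613 in the Cry/Per_KO-labelled libraries, and 11149 and 10830 in those of Per/Nr1d_KO. The first pair lay below all 4 other libraries, which overlapped among themselves. The log2 fold change was 0.40 (SE 0.047, adjusted p = 1.8e-06) for the Cry/Per_KO-labelled libraries and 0.43 (SE 0.047, adjusted p = 7e-07) for Per/Nr1d_KO, both relative to the Cry/Per/Nr1d_KO-labelled libraries (quasi-likelihood test of edgeR, Benjamini-Hochberg adjusted). Neither passed the fold limit of 0.81 on the log2 scale, which a gene must exceed, beside an adjusted p under 0.05, to be named as called below. Between Per/Nr1d_KO and the Cry/Per_KO-labelled libraries the difference was 0.03 (95% interval -0.07 to 0.13, adjusted p = 0.53). With the labels exchanged, the comparison of Per/Nr1d_KO with Cry/Per/Nr1d_KO, which differ in the cryptochromes, is the one with a difference of 0.03.

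**Figure D1:**
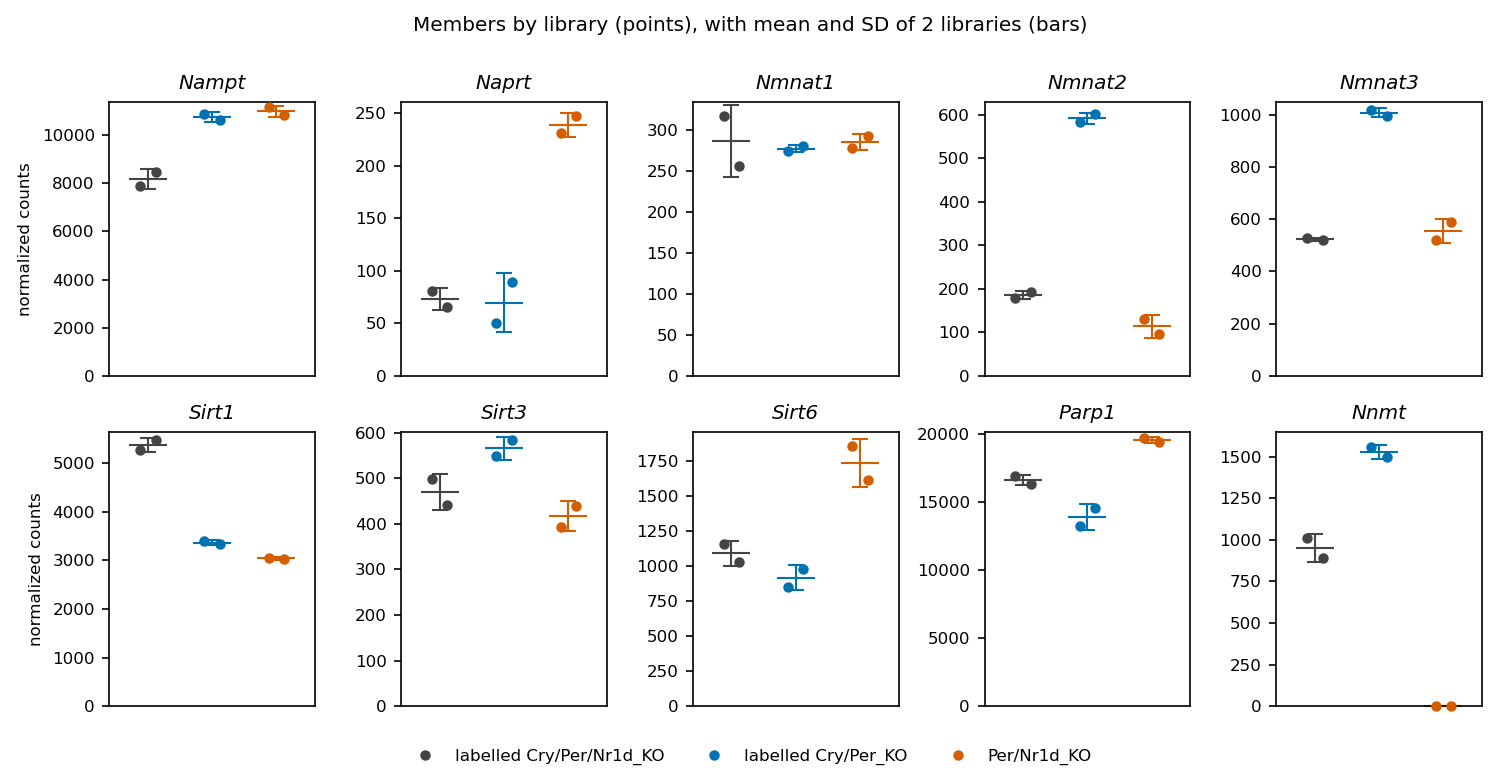
Normalized counts of the 10 genes in each library (y axis, linear, separate scale for each gene), by cell line. Points are single libraries, with the mean (long line) and SD (bars) of the 2 libraries of a line. Nnmt lies at 3.80 and 3.16 normalized counts in Per/Nr1d_KO, and Sirt1 is highest in the Cry/Per/Nr1d_KO-labelled libraries.

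For comparison with Nampt, values are given for 7 other CLOCK-BMAL1 outputs with E-boxes, Dbp, Tef, Hlf, Per3, Bhlhe40, Bhlhe41 and Ciart. These were chosen with results of these libraries known and are not independent evidence of a direction. Of these, 7 of 7 were called lower in Per/Nr1d_KO relative to the Cry/Per/Nr1d_KO-labelled libraries, where 9.35% of all genes tested were called lower. Their log2 fold changes ran from -4.56 (Bhlhe41) to -0.90 (Tef), with a median of -2.20. Relative to the Cry/Per_KO-labelled libraries, 7 of 7 were again called lower (median -2.65), against 13.8% of all genes, and Nampt was at 0.03. Both comparisons share the Per/Nr1d_KO libraries. CLOCK-BMAL1 also drives Nr1d1, Nr1d2 and Cry1, which are mutated in some of the lines and were kept outside this list, and relative to the Cry/Per/Nr1d_KO-labelled libraries Nr1d1 was at 0.69 (adjusted p = 1.1e-08), Nr1d2 at 0.12 (adjusted p = 0.061) and Cry1 at -0.13 (adjusted p = 0.046) in Per/Nr1d_KO. Of the other mutated clock genes, Cry2 (-2.55) and Per2 (-2.23) were called lower in that comparison, and Per1 was at -0.46 (adjusted p = 4.2e-06). Relative to the Cry/Per_KO-labelled libraries, Nr1d1 (-0.87), Cry1 (-1.79), Cry2 (-2.77), Per1 (-1.36) and Per2 (-2.68) were called lower in Per/Nr1d_KO, and Nr1d2 was at -0.53 (adjusted p = 2.8e-07). In the Cry/Per_KO-labelled libraries relative to the Cry/Per/Nr1d_KO-labelled libraries, 2 of the 7 were called higher (Dbp 1.27 and Per3 1.17), against 7.86% of all genes, Ciart fell by 0.51 (adjusted p = 4.8e-06), and the median was 0.37, beside 0.40 for Nampt.

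**Figure D2:**
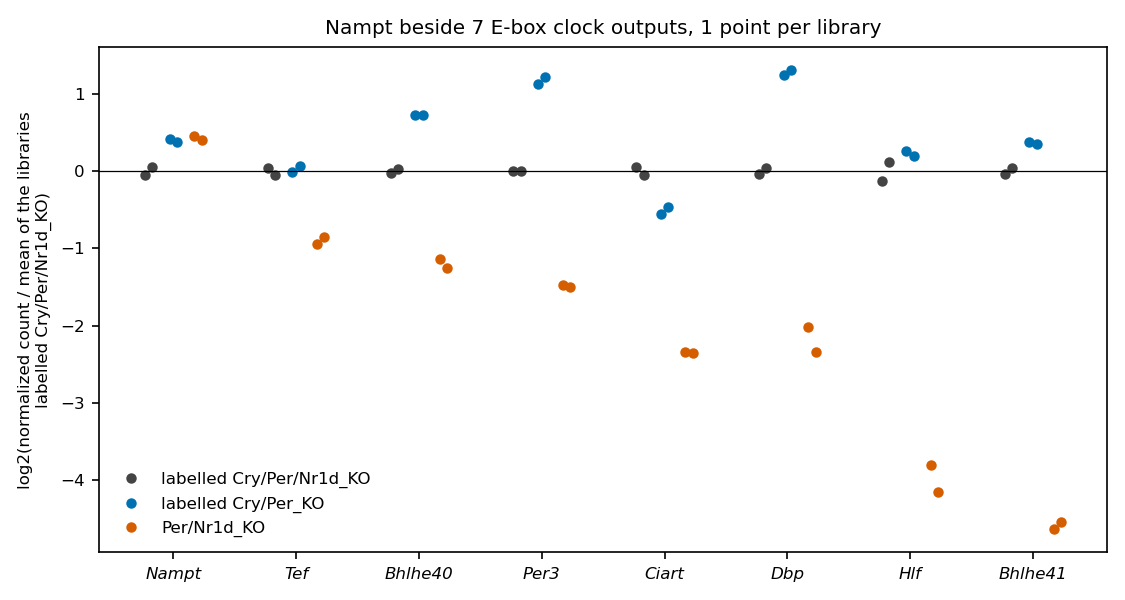
Nampt and 7 other E-box clock outputs (x axis) in each library, by cell line. The y axis is log2 of the normalized count over the mean of the Cry/Per/Nr1d_KO-labelled libraries. Points are single libraries. In the fit, the log2 fold changes of Per/Nr1d_KO relative to the Cry/Per/Nr1d_KO-labelled libraries ran from -4.56 (Bhlhe41) to -0.90 (Tef) for the 7 outputs, with Nampt at 0.43.

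Naprt was higher in Per/Nr1d_KO cells than in both other pairs. The gene (Entrez Gene 223646, chr15:75890963-75894481, minus strand) encodes the enzyme that turns nicotinic acid into its mononucleotide. It had 80.8 and 65.5 normalized counts in the Cry/Per/Nr1d_KO-labelled libraries, 50.1 and 89.4 in the Cry/Per_KO-labelled libraries, and 231 and 247 in Per/Nr1d_KO. Per/Nr1d_KO lay above the other pairs without overlap, and the other pairs overlapped. The log2 fold change of Per/Nr1d_KO was 1.70 (SE 0.19, adjusted p = 7.6e-07) relative to the Cry/Per/Nr1d_KO-labelled libraries and 1.76 (SE 0.19, adjusted p = 4.6e-07) relative to the Cry/Per_KO-labelled libraries, so Naprt was called higher under either reading of the labels. It passed the filter only through the line in which it was high, and with the filter at a mean of 10 the values were again 1.70 and 1.76 (adjusted p = 1.3e-07 and 7.9e-08). The difference of the labelled pairs from each other was -0.06 (95% interval -0.56 to 0.44), a wide interval at these low counts. Of its exon bases, 11.8% also lie in exons of Eef1d on the same strand, and without Per/Nr1d_KO replicate 2 the gene fell under the filter and was not tested.

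The 3 NMNAT genes each had a different pattern. Nmnat1 (Entrez Gene 66454, chr4:149467569-149485210, minus strand), the nuclear enzyme, had 317 and 255 normalized counts in the Cry/Per/Nr1d_KO-labelled libraries, 274 and 279.8 in the Cry/Per_KO-labelled libraries and 278 and 292 in Per/Nr1d_KO. The 3 pairs overlapped, and the log2 differences were -0.06 (95% interval -0.31 to 0.20), -0.01 (-0.26 to 0.24) and 0.04 (-0.21 to 0.30). These intervals leave no room for a difference at the fold limit in any of the 3 comparisons. Of its stretches of 50 bases, the read length, 4.7% also occur in other annotated genes.

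Nmnat2 (Entrez Gene 226518, chr1:152954781-153119266, plus strand), the NMNAT best known from neurons, was highest in the Cry/Per_KO-labelled libraries. It had 178 and 192 normalized counts in the Cry/Per/Nr1d_KO-labelled libraries, 583 and 601 in the Cry/Per_KO-labelled libraries, and 132 and 95.5 in Per/Nr1d_KO. The 3 pairs did not overlap. The log2 fold change between the labelled pairs was 1.68 (SE 0.12, adjusted p = 6.7e-09), a 3.20-fold difference that was called. Per/Nr1d_KO was lower by 2.42 (SE 0.13, adjusted p = 1e-10), a log2 value, than the Cry/Per_KO-labelled libraries. Relative to the Cry/Per/Nr1d_KO-labelled libraries it fell by 0.74 on the log2 scale (SE 0.15, adjusted p = 0.00038), short of the fold limit, and the fall was 0.95 without Per/Nr1d_KO replicate 1, which passes it, and the log2 value was -0.49 without replicate 2.

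Nmnat3 (Entrez Gene 74080, chr9:98287433-98420533, plus strand), the mitochondrial enzyme, was also highest in the Cry/Per_KO-labelled libraries, with 1019 and 996 normalized counts. The Cry/Per/Nr1d_KO-labelled libraries had 527 and 519.7, and those of Per/Nr1d_KO had 522 and 588, so the last 2 pairs overlapped. The gene was called higher between the labelled pairs (log2 fold change 0.94, SE 0.082, adjusted p = 6.1e-08) and lower in Per/Nr1d_KO relative to the Cry/Per_KO-labelled libraries (-0.85, SE 0.081, adjusted p = 1.1e-07). Per/Nr1d_KO and the Cry/Per/Nr1d_KO-labelled libraries differed by 0.09 (95% interval -0.09 to 0.28). The call against the Cry/Per_KO-labelled libraries was lost without Per/Nr1d_KO replicate 1 (-0.78). The chromosome of Nmnat3 moved with it, as described below.

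Levels were also set per kilobase of exon, with the exons of all annotated transcripts of a gene merged. The transcripts expressed may be shorter than this length, so levels of different genes are compared only roughly. Nmnat2 made up 12.8% and 15.0% of the summed NMNAT level in the Cry/Per/Nr1d_KO-labelled libraries, 25.6% and 26.3% in the Cry/Per_KO-labelled libraries, and 10.4% and 7.18% in Per/Nr1d_KO. Nmnat3 made up 43.8% to 51.6% in all 6 libraries. Nmnat1 held 38.0% to 43.4% in the Cry/Per/Nr1d_KO-labelled libraries and Per/Nr1d_KO and 22.8% and 23.3% in the Cry/Per_KO-labelled libraries. The Cry/Per_KO-labelled pair thus had the highest share of Nmnat2 and the lowest of Nmnat1 in this mix, and its shares of Nmnat3 overlapped those of Per/Nr1d_KO.

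Sirt1, which encodes the nuclear deacetylase that links NAD to gene expression, was highest in the Cry/Per/Nr1d_KO-labelled libraries. The gene (Entrez Gene 93759, chr10:63319005-63339035, minus strand) had 5272 and 5474 normalized counts there, 3395 and 3329 in the Cry/Per_KO-labelled libraries and 3057 and 3019 in Per/Nr1d_KO, and the 3 pairs did not overlap. Per/Nr1d_KO was lower by 0.82 on the log2 scale (SE 0.048, adjusted p = 3.6e-10), which was called, and the Cry/Per_KO-labelled libraries were lower by 0.68 (SE 0.048, adjusted p = 5.6e-09), which passed the test but not the fold limit. Per/Nr1d_KO was below the Cry/Per_KO-labelled libraries by 0.15 (SE 0.049, adjusted p = 0.012). The order of Sirt1 across the 3 pairs was therefore the reverse of that of Nampt for the Cry/Per/Nr1d_KO-labelled pair, which had the highest Sirt1 and the lowest Nampt. The value of -0.82 lies close to the limit, and without Cry/Per/Nr1d_KO replicate 2 it was -0.80 and no longer called.

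Sirt6, a nuclear sirtuin of chromatin and DNA repair, was highest in Per/Nr1d_KO. The gene (Entrez Gene 50721, chr10:81621787-81627792, minus strand) had 1155 and 1026 normalized counts in the Cry/Per/Nr1d_KO-labelled libraries, 853 and 981 in the Cry/Per_KO-labelled libraries and 1853 and 1612 in Per/Nr1d_KO, with no overlap between pairs. It was called higher in Per/Nr1d_KO relative to the Cry/Per_KO-labelled libraries (log2 fold change 0.91, SE 0.089, adjusted p = 1.3e-07), and relative to the Cry/Per/Nr1d_KO-labelled libraries it rose by 0.66 (SE 0.087, adjusted p = 5.6e-06). It was lower in the Cry/Per_KO-labelled libraries by 0.25 (SE 0.091, adjusted p = 0.021). Sirt1 and Sirt6 thus moved in opposite directions in Per/Nr1d_KO against either reference.

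Sirt3 (Entrez Gene 64384, chr7:140863663-140882309, minus strand), the main mitochondrial deacetylase, spanned the narrowest range of group means among the 3 sirtuins. It had 498 and 442 normalized counts in the Cry/Per/Nr1d_KO-labelled libraries, 549 and 584 in the Cry/Per_KO-labelled libraries and 394 and 440.3 in Per/Nr1d_KO. The Cry/Per_KO-labelled libraries lay above the others, and the log2 fold change between the labelled pairs was 0.27 (SE 0.096, adjusted p = 0.020). Per/Nr1d_KO fell by 0.43 (SE 0.097, adjusted p = 0.00074) relative to the Cry/Per_KO-labelled libraries, and its difference from the Cry/Per/Nr1d_KO-labelled libraries was -0.17 (95% interval -0.38 to 0.04). Of its exon bases, 12.7% lie opposite exons of Ric8a and Psmd13, and the strand setting of the counting is not given in the sources used here.

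Parp1, the main nuclear poly(ADP-ribose) polymerase and a large consumer of NAD after DNA damage, was the most abundant of the 10 genes and differed by small folds. The gene (Entrez Gene 11545, chr1:180568891-180600999, plus strand) had 16872 and 16333 normalized counts in the Cry/Per/Nr1d_KO-labelled libraries, 13223 and 14566 in the Cry/Per_KO-labelled libraries and 19716 and 19377 in Per/Nr1d_KO, without overlap. The Cry/Per_KO-labelled libraries were lower by 0.26 on the log2 scale (SE 0.049, adjusted p = 2e-04) than the Cry/Per/Nr1d_KO-labelled libraries. Per/Nr1d_KO was higher by 0.24 (SE 0.048, adjusted p = 0.00042) and 0.49 (SE 0.049, adjusted p = 1.5e-07) than the 2 labelled pairs. Each of the 3 differences passed the test and none the fold limit.

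Nnmt had by far the largest difference of the 10 genes. The gene (Entrez Gene 18113, chr9:48538002-48607655, minus strand) encodes the enzyme that methylates nicotinamide and so drains the salvage substrate. It had 1008 and 891 normalized counts in the Cry/Per/Nr1d_KO-labelled libraries, 1557 and 1496 in the Cry/Per_KO-labelled libraries, and 3.80 and 3.16 in Per/Nr1d_KO, from 3 and 4 reads. Per/Nr1d_KO was near 0, and the labelled pairs did not overlap each other. Pooled over the 2 libraries of a line, 1937 counts against 7 gave a level 281-fold higher in the Cry/Per/Nr1d_KO-labelled libraries (exact 95% interval 136 to 699), and 2923 against 7 a level 448-fold higher in the Cry/Per_KO-labelled libraries (217 to 1115). Only counting error enters these intervals, and reads without molecular identifiers are not independent molecules. The fall in Per/Nr1d_KO was called against both references (adjusted p = 6.3e-15 and 9.2e-16), with either library of the line left out. Nnmt was higher in the Cry/Per_KO-labelled pair by 0.68 on the log2 scale (SE 0.077, adjusted p = 1.1e-06), short of the fold limit. Aox1, which oxidizes methylated nicotinamide, was also called lower in Per/Nr1d_KO, by 1.58 and 1.55 on the log2 scale.

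**Figure D3:**
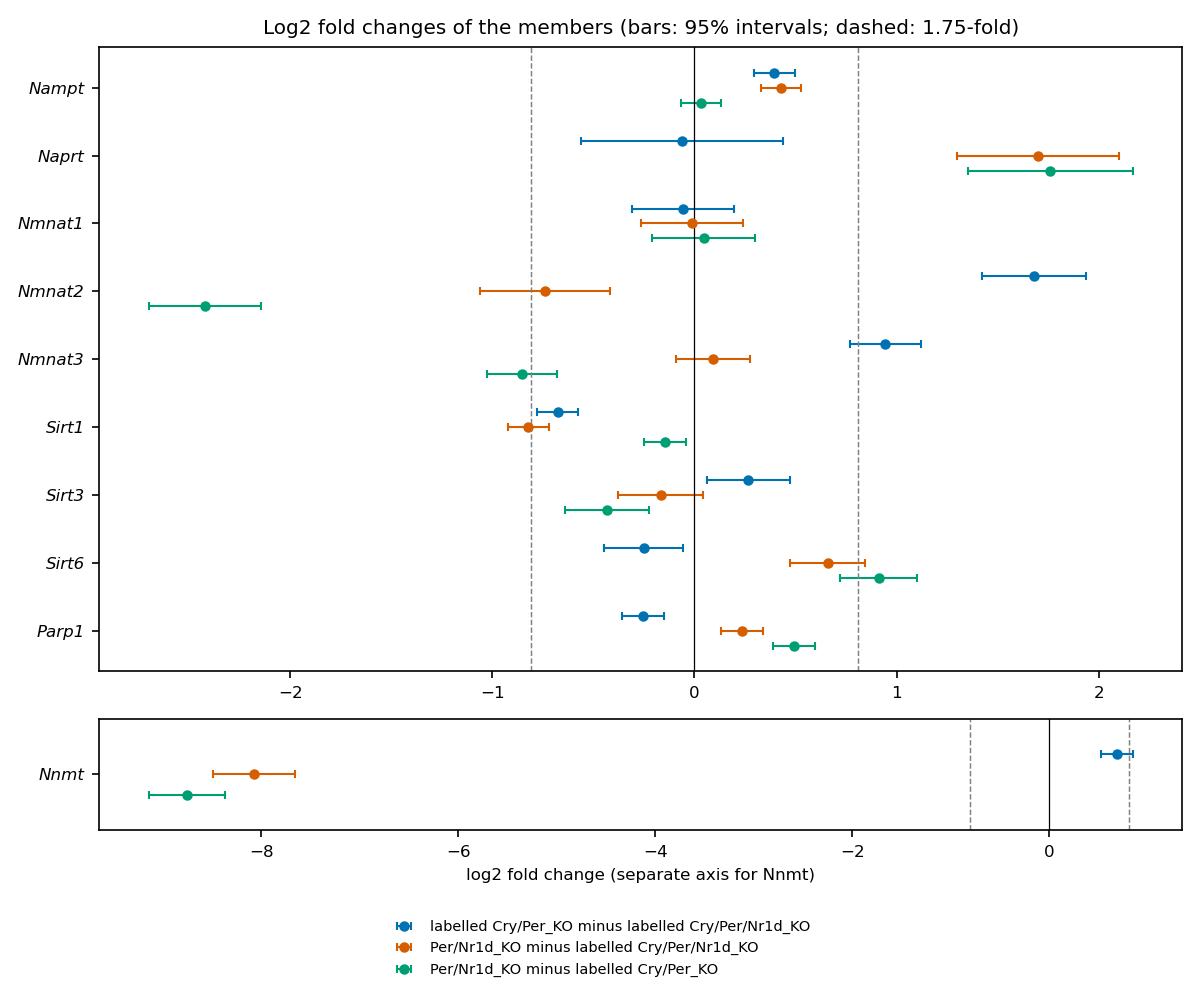
Log2 fold changes of the 10 genes in the 3 comparisons (x axis) with 95% intervals. Dashed lines mark the fold limit, 0.81. Nnmt has its own axis, since it lies at -8.07 and -8.76 in the comparisons of Per/Nr1d_KO, and Nmnat2 runs from -2.42 to 1.68.

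The calls among the 10 genes were set beside those over all genes. Between the labelled pairs 2 of the 10 were called, both higher in the Cry/Per_KO-labelled libraries (Nmnat2 and Nmnat3), and 16.8% of the 11934 genes tested were called, 7.86% higher and 8.95% lower. In Per/Nr1d_KO relative to the Cry/Per/Nr1d_KO-labelled libraries 3 were called, with Naprt higher and Sirt1 and Nnmt lower, against 20.7% of all genes (11.3% higher). Relative to the Cry/Per_KO-labelled libraries 5 were called, Naprt and Sirt6 higher and Nmnat2, Nmnat3 and Nnmt lower, against 29% of all genes (15.2% higher). In each comparison the compared pairs did not overlap for 8 of the 10 genes. They did not overlap for 86.4%, 87.1% and 90.4% of all genes either, so a lack of overlap was common. At any fold, 8, 7 and 8 of the 10 genes passed the test, where 76.4%, 75.8% and 82.1% of all genes did. Their median log2 fold changes were 0.10, 0.04 and -0.06, beside -0.0033, 0.011 and 0.035 for all genes, and in each comparison some of the genes rose and others fell. The shares at any fold lie near the background, and with 10 genes the shares called do not set them apart as a group.

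The genes were also compared with the chromosomes that carry them, because the median log2 fold change of a chromosome differed between lines, from -0.65 to 0.38 between the labelled pairs, from -0.46 to 0.52 in Per/Nr1d_KO relative to the Cry/Per/Nr1d_KO-labelled libraries, and from -0.84 to 0.88 relative to the Cry/Per_KO-labelled libraries. Chromosome 9, with Nmnat3 and Nnmt, had the highest median in the first comparison (0.38) and the lowest in the other two (-0.46 and -0.84). Relative to that median Nmnat3 was at 0.57 between the labelled pairs and at -0.01 in Per/Nr1d_KO relative to the Cry/Per_KO-labelled libraries, so neither call stood after subtraction. In Per/Nr1d_KO relative to the Cry/Per/Nr1d_KO-labelled libraries it moved from 0.09 to 0.55. Nnmt was at 0.31 between the labelled pairs and still at -7.61 and -7.92 in the comparisons of Per/Nr1d_KO. Nampt, on chromosome 12 with a median of 0.35 between the labelled pairs, was at 0.05 in that comparison at 0.35 in Per/Nr1d_KO relative to the Cry/Per/Nr1d_KO-labelled libraries and at 0.26 relative to the Cry/Per_KO-labelled libraries, where its chromosome was at -0.23 and its own value was 0.03. Parp1, on chromosome 1, was at -0.04 in Per/Nr1d_KO relative to the Cry/Per/Nr1d_KO-labelled libraries, where its chromosome was at 0.28. Nmnat2, on the same chromosome, was at 1.71, -1.02 and -2.68 in the 3 comparisons. The value of -1.02, against -0.74 before subtraction, passed the fold limit, so a call was gained. Subtraction left Sirt1 at -0.79 relative to the Cry/Per/Nr1d_KO-labelled libraries and Sirt6 at 0.806 relative to the Cry/Per_KO-labelled libraries, both just short of the limit of 0.807. What moved the chromosomes was not tested.

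**Figure D4:**
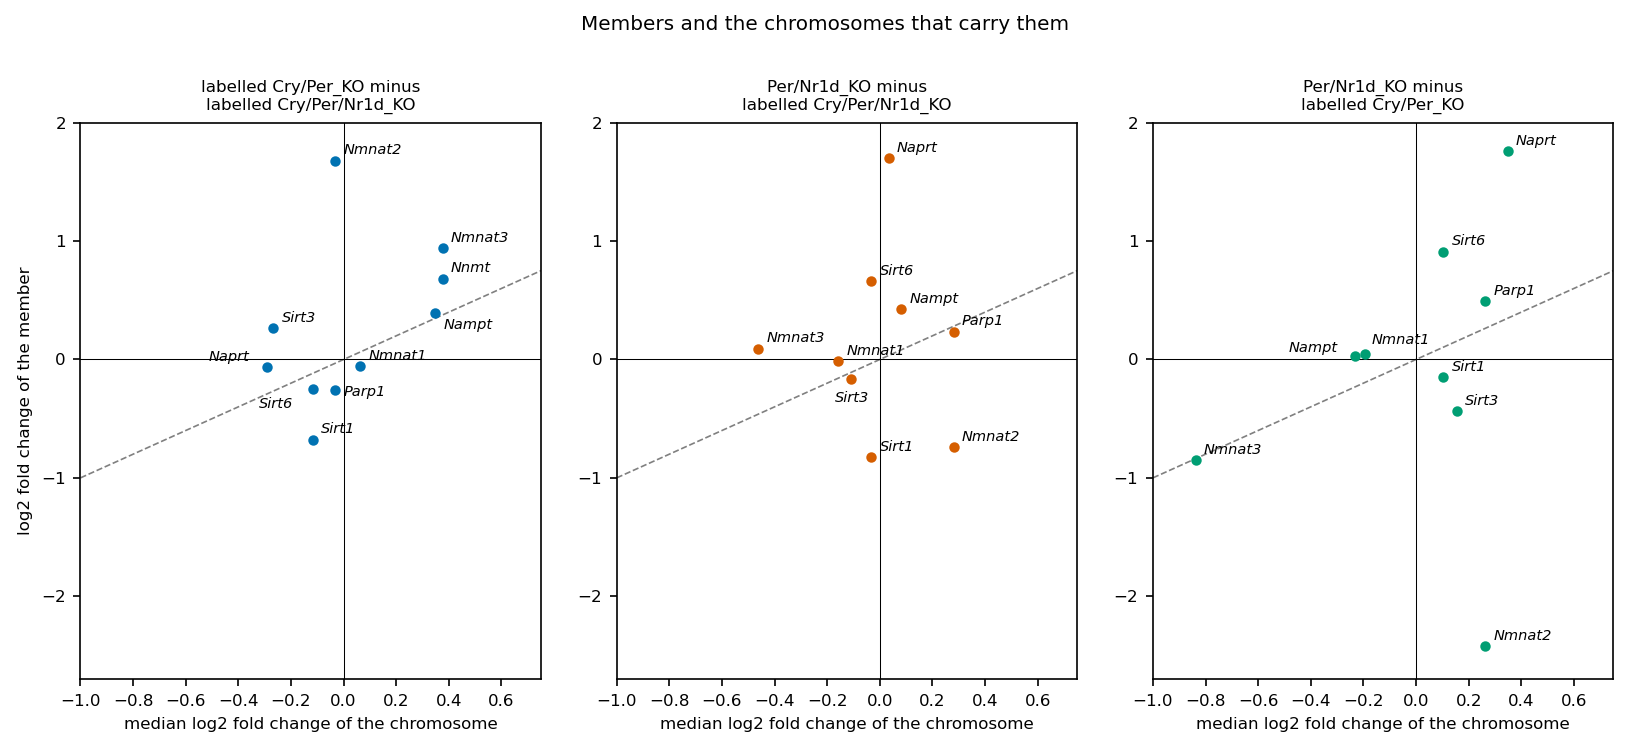
Log2 fold change of each gene (y axis) against the median log2 fold change of all genes tested on its chromosome (x axis), 1 panel per comparison, with the line of equality dashed. Nmnat3 sits on the line in Per/Nr1d_KO relative to the Cry/Per_KO-labelled libraries (-0.85 and -0.84), and Nnmt lies outside the frame in both comparisons of Per/Nr1d_KO.

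Levels of different genes were compared as normalized counts per kilobase of merged exon, scaled to library size. The order of genes with close values depends on this length. In the Cry/Per/Nr1d_KO-labelled libraries the order was Parp1 (47.6), Nampt (24.6), Sirt1 (15.3), Nnmt (9.14), Sirt6 (5.94), Nmnat3 (1.59), Nmnat1 (1.43), Sirt3 (1.20), Nmnat2 (0.487) and Naprt (0.474), and the neighbours Nmnat3 and Nmnat1, and Nmnat2 and Naprt, overlapped. Parp1 and Nampt led in all 3 pairs, at 39.8 and 32.3 in the Cry/Per_KO-labelled libraries and at 56.1 and 33.0 in Per/Nr1d_KO. Nnmt was the third gene in the Cry/Per_KO-labelled libraries (14.7) and the last in Per/Nr1d_KO (0.0335). Sirt1 (9.57) followed it in the former, and Sirt6 (9.44) stood above Sirt1 (8.65) in Per/Nr1d_KO. The remaining genes lay between 0.452 (Naprt) and 5.00 (Sirt6) in the Cry/Per_KO-labelled libraries, where Sirt3 and Nmnat1 overlapped, and between 0.298 (Nmnat2) and 1.68 (Nmnat3) in Per/Nr1d_KO, where Nmnat3 and Naprt overlapped. In every line each of the 3 NMNAT genes lay below Nampt on this scale.

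Of 45 other genes of NAD metabolism, 31 were tested. Between the labelled pairs 10 were called, 9 of them higher in the Cry/Per_KO-labelled libraries, where 16.8% of all genes were called and 7.86% were higher. In Per/Nr1d_KO 9 were called relative to the Cry/Per/Nr1d_KO-labelled libraries (8 higher), against 20.7% of all genes (11.3% higher), and 12 relative to the Cry/Per_KO-labelled libraries (7 higher, 5 lower), against 29% (15.2% higher). Of the other 4 sirtuins, edgeR and DESeq2 each called 0 in any of the 3 comparisons, although 3, 4 and 1 of them passed the test of edgeR at any fold, and DESeq2 gave 3, 4 and 1 of them an unadjusted p under 0.05. Of 14 other genes listed with the PARP family, 5, 6 and 8 were called in the 3 comparisons, set beside 16.8%, 20.7% and 29% of all genes. Parg, which is in that list, encodes poly(ADP-ribose) glycohydrolase and not a polymerase, and it was not called. Parp8, Parp9, Parp10, Parp12 and Parp14 were called higher in both comparisons of Per/Nr1d_KO, by 1.28, 3.70, 3.04, 2.51 and 5.04 on the log2 scale relative to the Cry/Per/Nr1d_KO-labelled libraries. Parp14 had 284 and 329.8 normalized counts in the Cry/Per/Nr1d_KO-labelled libraries, 1538 and 1374 in the Cry/Per_KO-labelled libraries and 10214 and 9947 in Per/Nr1d_KO, in which the level of Parp1 differed from the labelled pairs by 0.24 and 0.49 on the log2 scale. Of the bases in Parp9 exons, 9.4% lie opposite exons of Dtx3l. The 3 PARP genes called lower in Per/Nr1d_KO relative to the Cry/Per_KO-labelled libraries, Parp3 (-1.18), Parp6 (-1.11) and Parp16 (-1.13), all lie on chromosome 9, as does Nmnat3. With the median of the chromosome subtracted, they lay at -0.34, -0.27 and -0.29. For genes outside the 10 members, this subtraction was added after the data were seen.

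**Figure D5:**
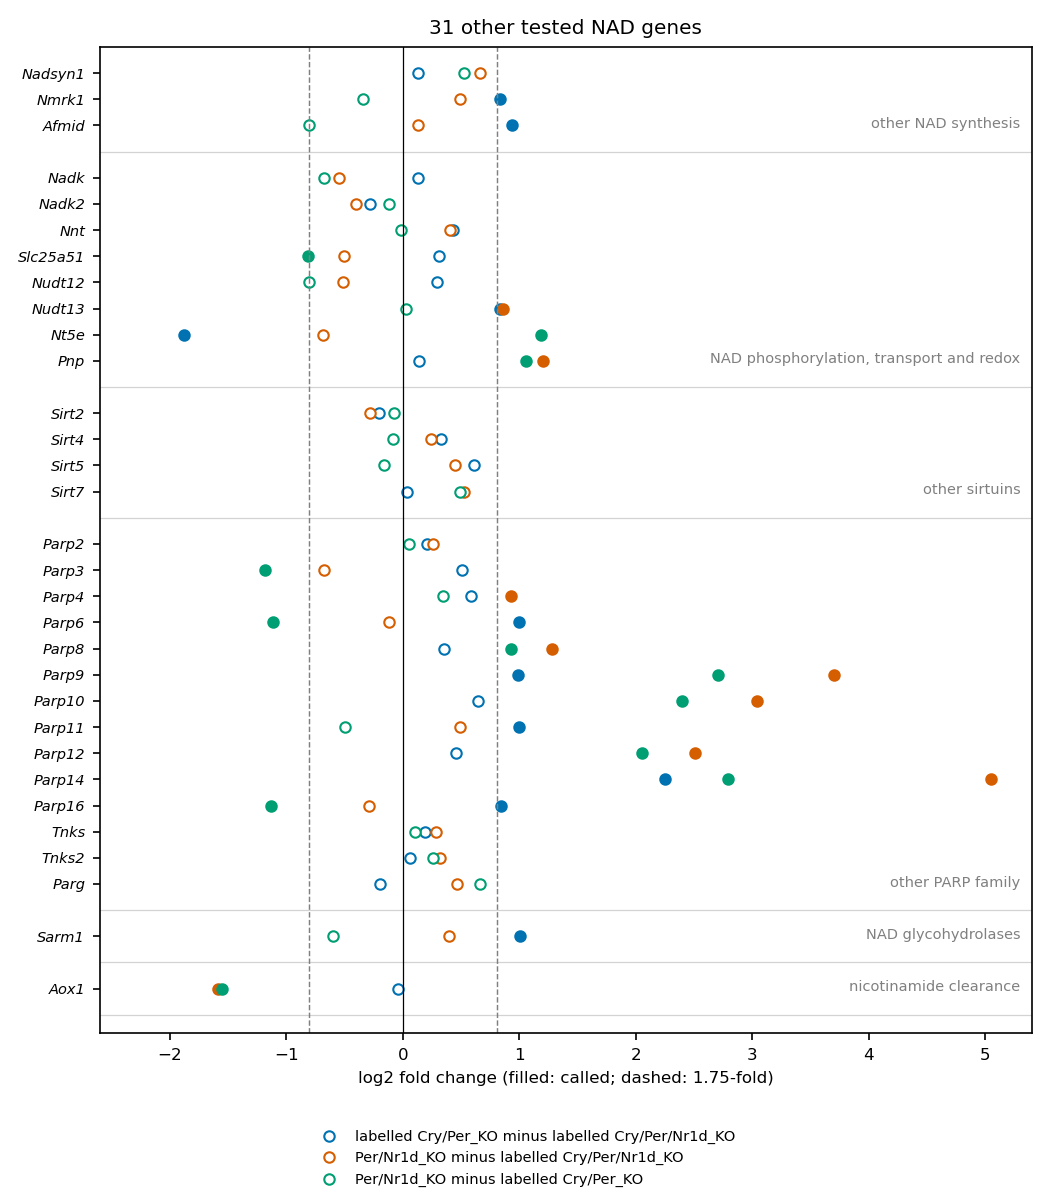
Log2 fold changes of the other genes of NAD metabolism that were tested (x axis), grouped by function, in the 3 comparisons, with called genes filled and the fold limit dashed. Parp14 reaches 5.04 in Per/Nr1d_KO relative to the Cry/Per/Nr1d_KO-labelled libraries, and no other sirtuin passes the fold limit.

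A mixed list held genes for NAD phosphorylation, transport and redox, and genes that break down NAD or related nucleotides and nucleosides. Of its 8 tested genes, 2, 2 and 3 were called in the 3 comparisons, and 16.8%, 20.7% and 29% of all genes were. These calls fell on Nudt13, Nt5e, Pnp and Slc25a51. The NAD kinase genes Nadk and Nadk2 and the transhydrogenase gene Nnt were not called. Pnp, which releases nicotinamide from its riboside, rose in Per/Nr1d_KO by 1.20 and 1.06 on the log2 scale, but 18.9% of its stretches of 50 bases are shared with 27 other annotated genes. Nmrk1, which phosphorylates nicotinamide riboside, was called higher in the Cry/Per_KO-labelled libraries than in the Cry/Per/Nr1d_KO-labelled libraries (0.83). Nt5e, an ectoenzyme that can break down extracellular nucleotides, was called lower there (-1.87). Nudt13 was called higher in the Cry/Per_KO-labelled libraries (0.83) and in Per/Nr1d_KO (0.86), both relative to the Cry/Per/Nr1d_KO-labelled libraries. Also called were Parp14 (2.25), Parp9 (0.99), Sarm1 (1.003), an NAD glycohydrolase, Afmid (0.93), Parp11 (0.99), Parp6 (0.997) and Parp16 (0.84) between the labelled pairs, Parp4 (0.93) and Parp8 (1.28) in Per/Nr1d_KO relative to the Cry/Per/Nr1d_KO-labelled libraries, and Parp8 (0.93), Nt5e (1.19) and Slc25a51 (-0.81), the mitochondrial NAD carrier, relative to the Cry/Per_KO-labelled libraries. Sarm1 passed the expression filter only through its level in the Cry/Per_KO-labelled libraries, without which its mean lay just under the filter. Its mean was 169 normalized counts there, 84.6 in the Cry/Per/Nr1d_KO-labelled libraries and 111 in Per/Nr1d_KO. With chromosome medians subtracted, 8, 6 and 8 of the 31 other NAD genes were called in the 3 comparisons, in place of 10, 9 and 12. Of all 11934 genes tested, 1619, 2300 and 2715 were called after subtraction, in place of 2006, 2468 and 3457. The calls lost were those of Parp6 (0.62), Parp11 (0.65) and Parp16 (0.47) between the labelled pairs, of Nudt13 (0.35), Pnp (0.69) and Parp4 (0.42) in Per/Nr1d_KO relative to the Cry/Per/Nr1d_KO-labelled libraries, and of Slc25a51 (-0.62), Pnp (0.44), Parp3, Parp6 and Parp16 relative to the Cry/Per_KO-labelled libraries, and Parp10 and Nudt12 each gained 1 call.

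The patterns most like those of the members were found by the root mean square difference of centred log2 CPM over the 6 libraries, among all genes tested. For Nampt these were Xrcc4 (0.0205), Alms1 (0.0250) and Eogt (0.0266). For Nmnat3 the nearest was Afmid (0.0383), a gene of NAD synthesis from tryptophan, followed by Pnpla8 and Exd2, although 40.3% of the 50-base stretches of Afmid are shared with the gene Gm20708. S100a10 (0.0304) and Tanc1 (0.0323) lay nearest to Sirt1, and Ethe1 (0.0514) to Sirt6. The smallest difference was larger for Nmnat2 (Tnxb, 0.112), Naprt (Psme2, 0.192) and Nnmt (Efemp1, 0.239). These values are not scaled to a gene's own range. The highest group mean was 5.21, 3.43 and 439 times the lowest in these genes, and 1.34 times in Nampt. The size of the difference therefore does not rank likeness between members. With 6 libraries in 3 pairs, such a likeness rests on 3 levels.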

How the data were processed

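Poly-A RNA of 6 cultures was sequenced from stranded libraries as single-end reads of 50 bases. Reads were aligned by the authors with STAR (mm10), and featureCounts gave the deposited raw counts per gene, named by Entrez Gene ID. Their strand setting and treatment of multi-mapping reads are not given in the sources used here. The authors also deposited DESeq2 (1.22.2) tables of their own comparisons, with log2 fold changes and p-values, which were not used.

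Libraries were grouped by genotype label. The analysis used edgeR 4.0.16 and limma 3.58.1 in R 4.3.3. Genes averaging 100 normalized counts or more were tested in one quasi-likelihood fit of all 6 libraries with TMM normalization, without a replicate term, and a call needed a fold above 1.75 and an adjusted p (Benjamini-Hochberg) under 0.05. Normalized counts are TMM-scaled counts at the mean effective library size. The SE is the log2 fold change divided by the square root of F, and intervals are 95%. With 2 libraries per line, p-values measure the spread between RNA preparations. The biological coefficient of variation was 0.0393 at 53764390 to 85927236 counts per library. The 2 libraries of a line differed beyond sampling noise, with a chi-square per degree of freedom of 8.07 to 16.8.

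Symbols, coordinates and promoters came from RefSeq (GRCm38.p6, the assembly of mm10), with symbols for 25275 of 27179 genes, and exons and shared 50-base stretches from GENCODE vM21. Every member was named, other pathway genes were counted as lists, from which only called genes could be named with fold changes, and likeness was computed for Nampt and members whose highest group mean was over 1.75 times the lowest. The members and lists were chosen with earlier results of these data known. Alternatives were DESeq2 1.42.0 at 2 thresholds, glmTreat, other size factors, other filters, no fold limit, the compared groups alone, a replicate block, each library left out, chromosome medians subtracted and the labels exchanged. The fit was tested on simulated data for the labelled pairs (11910 genes), and recovered 65 of 67 genes changed 1.5-fold, 63 of 67 changed 2-fold and 66 of 66 changed 4-fold at an adjusted p under 0.05, with 6 false calls. The simulation gave every gene the same dispersion and left most genes unchanged. In the data 76.4% of genes passed the test between the labelled pairs, so the rate of false calls there was not tested.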

Additional observations from a re-analysis of the deposited data

How the results depend on the processing

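Of 476 comparisons of a gene's log2 fold change with its value under an alternative, the exchange of labels aside, 436 kept direction and side of the threshold, 9 turned direction, 15 gained and 16 lost the call. Direction could not turn by glmTreat or without a fold limit, which keep the log2 fold changes of the main fit. The DESeq2 thresholds also share the same fold changes, so this count overstates how far direction was tested. Between the labelled pairs the 10 genes gave 0 calls by DESeq2 at an adjusted p under 1e-22 (1150 genes in all), although DESeq2 called 2 at 0.05 and 8 had an unadjusted p under 0.05. There were 1 by glmTreat (1411 genes), 1 with chromosome medians subtracted (1619 genes) and 8 without a fold limit (9118 genes). The count of all genes called was 3311 with a filter at a mean of 10 and 3808 without a filter. In Per/Nr1d_KO relative to the Cry/Per/Nr1d_KO-labelled libraries, 7 were called without a fold limit (9042 genes) and 5 with exchanged labels (3457 genes). All genes called were 3912 and 4576 under the same 2 filters. Relative to the Cry/Per_KO-labelled libraries the calls were 2 by DESeq2 at 1e-22 (2600 genes in all) and 3 by glmTreat (2841 genes). They were 3 with chromosome medians subtracted (2715 genes), 3 with exchanged labels (2468 genes) and 8 without a fold limit (9793 genes). Without a filter, 5590 genes were called. By glmTreat the calls of Nmnat3, Sirt1 and Sirt6 were lost.

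Exchanged labels turned all 10 differences between the labelled pairs, to -0.40 (Nampt), 0.062 (Naprt), 0.057 (Nmnat1), -1.68 (Nmnat2), -0.94 (Nmnat3), 0.68 (Sirt1), -0.27 (Sirt3), 0.25 (Sirt6), 0.26 (Parp1) and -0.68 (Nnmt). Against Cry/Per/Nr1d_KO they put Per/Nr1d_KO at 0.045 for Nmnat1 and -0.85 for Nmnat3, and against Cry/Per_KO at -0.012 and 0.092. Chromosome medians turned Naprt between the labelled pairs (0.23), and Nmnat1 (0.15) and Parp1 (-0.045) in Per/Nr1d_KO relative to the Cry/Per/Nr1d_KO-labelled libraries.

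With each library left out in turn, 2 of the 10 genes were called between the labelled pairs, 2 to 4 and 4 to 5 in the comparisons of Per/Nr1d_KO with the Cry/Per/Nr1d_KO-labelled libraries and Cry/Per_KO, and the lone library left is then assumed to vary like the other groups. Between the labelled pairs Naprt ran from -0.56 to 0.27 and Nmnat1 from -0.19 to 0.12. In Per/Nr1d_KO relative to the Cry/Per/Nr1d_KO-labelled libraries Nmnat1 ran from -0.15 to 0.16 and Nmnat3 from -0.012 to 0.17. All of these values lay within the fold limit. Naprt could not be tested without Per/Nr1d_KO replicate 2, or between the labelled pairs alone, where its mean was under the filter. With the replicate number as a block the calls were 2, 3 and 5 of the 10 genes and 2002, 2468 and 3457 of all genes. Same-numbered libraries shared only a number, with correlations of their deviations across genes of -0.21, -0.10 and -0.02.

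Depth limits Nnmt in Per/Nr1d_KO (3 and 4 reads) and Naprt, whose SE reached 0.23.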

Other observations

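Several enzymes on the route from tryptophan to NAD were near the limit of detection in these fibroblasts, although Afmid, of the same route, had 524 to 1054 normalized counts. Of 12 other genes of NAD synthesis, 3 were abundant enough to be tested (Nadsyn1, Nmrk1 and Afmid). Qprt, which makes nicotinic acid mononucleotide from quinolinate, and Kmo, which hydroxylates kynurenine, had 0 counts in all 6 libraries, which allows up to 3 counts in each. Kynu and Haao, the next enzymes of the route, had at most 2 counts in a library. Ido2 was the highest of the untested genes of this list, with 37.8 and 46.1 normalized counts in the Cry/Per_KO-labelled libraries, 7.99 and 18.9 in the Cry/Per/Nr1d_KO-labelled libraries and 5.07 and 14.2 in Per/Nr1d_KO. The NAD glycohydrolase Cd38 had 3.93 to 11.5 normalized counts in the 6 libraries. Aox3, another aldehyde oxidase gene, had 18, 21, 22 and 16 counts in the 4 libraries of the labelled pairs and 0 in both of Per/Nr1d_KO. None of these genes was tested.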
